A study of Mus musculus with 21 samples.

Results

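The response of double-positive thymocytes to an activator form of the histone deacetylase HDAC7 was set against their response to the loss of HDAC7, gene by gene. The comparison used 12 of the 21 arrays of the series: 3 from HDAC7-VP16 transgenic mice, the wild-type arrays 4 to 6 that go with them, 3 from HDAC7 knockout mice, and the wild-type arrays 1 to 3 that go with those. They were chosen by their labels. All mice were untreated C57 Bl/6 animals between 3 and 6 weeks old, and every array held RNA of cells sorted by flow cytometry for CD4 together with CD8. They are biological replicates by the design text. The labels name neither the promoter of the transgene nor the allele or any Cre behind the knockout, so they do not say which cells carried either change or from which stage.

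HDAC7 belongs to the class IIa deacetylases, which bind DNA poorly by themselves and are brought to their target genes by partners, above all the MEF2 transcription factors. In resting double-positive thymocytes HDAC7 is known as a nuclear repressor, and signals from the T cell receptor lead to its phosphorylation and export from the nucleus. VP16 is a viral activation domain, so a fusion protein carries an activator to the sites that HDAC7 occupies. Double-positive thymocytes are the cells in which a newly made T cell receptor is tested: most die unsignalled, some are positively selected and mature into single-positive cells, and strongly self-reactive ones are deleted. The question asked of the 12 arrays was which genes respond differently to the activator form and to the loss of HDAC7.

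Promoters are shown for 4 genes whose effects differed, because their windows hold letters that are known binding sites of factors in this pathway. Among genes with such letters they were picked by the size of the difference. Each window runs from 250 bases before to 50 bases after the RefSeq start, on GRCm38.p6. The capitals mark a MEF2 site in Gpr146 and Gpr65, an NBRE (AAAGGTCA, bound by the Nr4a nuclear receptors) in Tgif1, and a CRE (TGACGTCA, bound by CREB proteins) in Pcsk1.
Gpr146, chr5:139377447-139377746, plus strand: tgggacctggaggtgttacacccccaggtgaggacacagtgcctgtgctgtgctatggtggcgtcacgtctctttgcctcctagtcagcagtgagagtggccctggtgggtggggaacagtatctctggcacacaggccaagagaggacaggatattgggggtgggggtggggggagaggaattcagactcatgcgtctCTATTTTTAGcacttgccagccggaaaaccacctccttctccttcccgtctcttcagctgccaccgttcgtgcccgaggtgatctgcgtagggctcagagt
Gpr65, chr12:98268385-98268684, plus strand: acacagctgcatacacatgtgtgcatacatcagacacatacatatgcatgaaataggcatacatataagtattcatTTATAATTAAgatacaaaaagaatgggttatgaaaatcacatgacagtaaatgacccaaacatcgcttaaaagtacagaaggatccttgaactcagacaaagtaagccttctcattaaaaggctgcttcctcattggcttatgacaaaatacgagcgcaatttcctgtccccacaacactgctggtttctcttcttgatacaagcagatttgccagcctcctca
Tgif1, chr17:70849741-70850040, minus strand: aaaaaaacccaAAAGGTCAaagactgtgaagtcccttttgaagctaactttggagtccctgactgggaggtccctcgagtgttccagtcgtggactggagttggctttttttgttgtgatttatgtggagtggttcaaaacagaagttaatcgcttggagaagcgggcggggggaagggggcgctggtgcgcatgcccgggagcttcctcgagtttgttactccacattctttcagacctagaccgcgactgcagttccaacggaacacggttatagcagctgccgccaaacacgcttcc
Pcsk1, chr13:75089607-75089906, plus strand: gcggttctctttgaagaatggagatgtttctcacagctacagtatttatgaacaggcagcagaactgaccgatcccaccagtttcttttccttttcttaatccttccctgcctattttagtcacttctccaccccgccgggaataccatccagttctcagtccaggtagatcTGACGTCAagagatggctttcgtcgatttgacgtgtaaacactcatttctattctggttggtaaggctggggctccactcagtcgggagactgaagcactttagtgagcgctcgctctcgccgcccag
Gpr146 codes for an orphan receptor and Gpr65 for a proton-sensing receptor, and both were higher in the knockout. Tgif1, a homeobox repressor, was lower in the knockout and was picked after its values were seen. Pcsk1, a protease that cleaves prohormones, was higher with HDAC7-VP16. In all, 5 motifs were searched on both strands in the windows of 27025 genes, and no other motif searched overlapped the capitals. A window was found for 81 of the 117 named genes with a higher HDAC7-VP16 effect and for 59 of the 76 with a lower one. MEF2 sites stood in 2 windows of the first set (2.47%) and 3 of the second (5.08%). They stood in 3.70% of all windows and 2.50% of those of all named genes. The NBRE stood in 1 window of the first set (1.23%), that of Tgif1, and in none of the second, against 1.70% of all and 1.06% of the named. The ETS core CCGGAAG stood in 5 (6.17%) and 9 (15.3%), against 9.93% of all windows and 16.0% of those of all named genes. The CRE stood in 5 (6.17%) and 2 (3.39%), against 2.03% of all and 2.82% of the named. The cell cycle element TTTGAA stood in 13 (16.0%) and 14 (23.7%), against 20.2% of all and 18.4% of the named. These shares describe letters in a window and were not tested.

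The value of each probe set is a log2 RMA signal, and an effect is a difference of mean log2 signals within 3 arrays against 3. The difference reported throughout is the HDAC7-VP16 effect minus the knockout effect, so a positive value means that the gene stood higher with HDAC7-VP16 than without HDAC7, each against its own wild-type arrays. It was tested with limma over 28923 probe sets, and it passed when the Benjamini-Hochberg adjusted p was below 0.05. Arrays of a group correlated at r of at least 0.987, and the number of arrays limits the precision. Array medians lay between 6.01 and 6.25. The arrays of the knockout and wild-type 1 to 3 spread more around their means (median residual SD 0.156) than those of HDAC7-VP16 and wild-type 4 to 6 (0.104). Only 2119 of the probe sets carry a gene name here, all from the authors' tables of changed genes, so that lists of genes hold members chosen on these samples. In bulk samples such as these, fewer cells of a type and less RNA per cell cannot be told apart.

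Hdac7 itself read 11.19, 11.35 and 11.29 in the HDAC7-VP16 arrays, against 10.87, 10.83 and 10.83 in wild-type 4 to 6. It read 10.98, 10.94 and 10.97 in the knockout arrays, against 11.42, 11.01 and 11.48 in wild-type 1 to 3. Neither pair of groups overlapped, and the effects were 0.44 ± 0.07 with HDAC7-VP16 (SE, limma adjusted p = 0.0351) and -0.34 ± 0.14 in the knockout (adjusted p = 0.664). Their difference of 0.78 ± 0.16 passed (adjusted p = 0.0435), but in the 12 fits with an array removed it passed only without HDAC7-VP16 array 1 and without wild-type 2 (adjusted p up to 0.135 in the others). The sources give no positions for its probes or for the deleted part, so the knockout rests on its label.

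The effects differed in 232 probe sets, 138 with a higher and 94 with a lower HDAC7-VP16 effect, which is 0.802%, 0.477% and 0.325% of those tested. At an unadjusted p below 0.05 there were 3416. Of the 232, 193 carry gene names, 117 higher and 76 lower (9.11%, 5.52% and 3.59% of the named). The knockout had the larger absolute effect in 172 of the 232 and HDAC7-VP16 in 60, and the effects had opposite signs in 160. The differences ranged in size from 0.55 to 2.83, with a median of 0.95. Same-numbered knockout and wild-type 1 to 3 arrays deviated together, and with their number as a replicate block 649 probe sets passed (284 higher, 365 lower), among them all 232. Leaving out HDAC7-VP16 array 2 or 3 left 106 and 94 calls, leaving out wild-type 4, 5 or 6 left 124, 97 and 140, and leaving out knockout array 2 or wild-type 3 left 137 and 125. Without wild-type 1 there were 400. Centring each array on its median gave 106 higher and 121 lower. In 86 probe sets, 53 higher and 33 lower, the difference passed in each of the 12 fits with an array removed, and none of the 232 changed sign under any alternative.

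**Figure D1:**
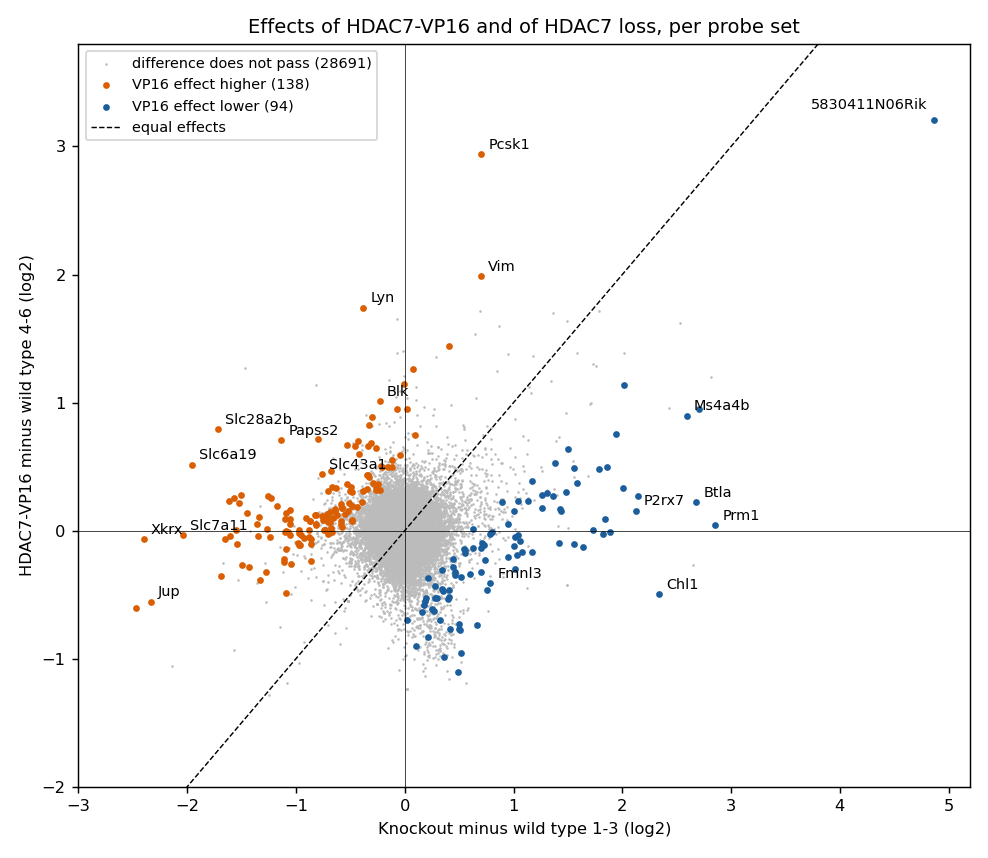
Effect of HDAC7-VP16 (y axis, log2, against wild-type 4 to 6) and of HDAC7 loss (x axis, log2, against wild-type 1 to 3) for each of the 28923 probe sets. Orange points (138) and blue points (94) are those whose difference passed, and they lie away from the dashed line of equal effects, many of them along the horizontal axis where the HDAC7-VP16 effect is near 0.

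The differences fell into a few patterns when each effect was also fitted on its own 6 arrays, where 413 probe sets changed with HDAC7-VP16 (200 up and 213 down, or 1.43%, 0.691% and 0.736% of those tested, with 35 to 791 when an array was removed) and 234 in the knockout (128 up and 106 down, or 0.809%, 0.443% and 0.366%, with 107 to 155). The split of rises and falls with HDAC7-VP16 changed when single arrays were removed. Without HDAC7-VP16 array 3 there were 34 rises and 4 falls, without wild-type 4 there were 46 and 6, without wild-type 5 there were 34 and 1, and without wild-type 6 there were 59 and 20, whereas HDAC7-VP16 array 1 left out gave 291 and 500, and array 2 left out gave 76 and 87. Of the named, 14.6% changed with HDAC7-VP16 (7.98% up, 6.65% down) and 9.67% in the knockout (5.1% up, 4.58% down). In 68 of the 232, the knockout fell and the HDAC7-VP16 effect did not pass, with median effects of 0.00 with HDAC7-VP16 and -1.06 in the knockout. In 41 the knockout rose and HDAC7-VP16 did not pass, with medians of 0.01 and 1.26. In 27 HDAC7-VP16 rose and the knockout did not pass (medians 0.71 and -0.23), with knockout effects from -1.14 to 0.70. In 17 HDAC7-VP16 fell and the knockout did not pass (medians -0.69 and 0.27), with knockout effects from 0.02 to 0.67. Both effects passed in the same direction in 12 and in opposite directions in 2. Neither passed alone in the other 65, 40 with a higher and 25 with a lower HDAC7-VP16 effect. Since the single effects share arrays with the difference, this split is a description. Of the genes called in the knockout, 71 of the 106 falls and 52 of the 128 rises differed from HDAC7-VP16. Of those called with HDAC7-VP16, 38 of the 200 rises and 20 of the 213 falls differed from the knockout.

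Membrane transporters and channels led the genes that stood lower without HDAC7 than with HDAC7-VP16, each against its own wild-type arrays. Such proteins set the supply of amino acids and nucleosides and the flow of ions. Of the 15 named members of the list of ion channels and solute carriers, 8 had a higher and 1 a lower HDAC7-VP16 effect. Over all named genes 5.52% were higher and 3.59% lower. The list's members were chosen with earlier results of these data known, so these shares are not a measure of enrichment. The list's median difference was 1.21, against -0.03 over all named probe sets and 0.04 over all tested. The list's median effects were 0.14 with HDAC7-VP16, where 5 of the 15 lay below wild type, and -0.76 in the knockout, where 10 did. Cacna1e and Scn4b, whose differences passed, lay below wild type with HDAC7-VP16 too, with effects of -0.61 and -0.36. With any 1 array removed 7 to 9 members were higher, and with the replicate block 9.

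Slc6a19, a transporter of neutral amino acids known from gut and kidney, read 9.39, 9.90 and 9.81 in the HDAC7-VP16 arrays, against 9.13, 9.20 and 9.22 in wild-type 4 to 6. It read 6.41, 6.56 and 6.90 in the knockout arrays, against 8.36, 8.38 and 9.00 in wild-type 1 to 3. All 3 HDAC7-VP16 arrays were above their wild types, an effect of 0.52 that did not pass alone (adjusted p = 0.0759), and all 3 knockout arrays were far below theirs. The difference was 2.48 (95% interval 1.92 to 3.03, limma adjusted p = 0.000622).

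Slc28a2b and Slc28a2 lie side by side and code for related sodium-coupled nucleoside carriers, and probes may read both. Slc28a2b read 9.33, 9.96 and 9.81 in the HDAC7-VP16 arrays, against 8.90, 8.81 and 9.02 in wild-type 4 to 6. In the knockout arrays it read 6.38, 6.27 and 6.71, against 7.84, 8.22 and 8.44 in wild-type 1 to 3. Neither pair of groups overlapped, and its difference was the largest positive one among the named, 2.50 (1.95 to 3.06, adjusted p = 0.000593). For Slc28a2 the difference was 1.78 (adjusted p = 0.00453), with effects of 0.28 with HDAC7-VP16 and -1.5 in the knockout.

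Slc37a2, a sugar-phosphate exchanger, read from 9.79 to 10.00 in the HDAC7-VP16 arrays, against 9.62 to 9.72 in wild-type 4 to 6. In the knockout arrays it read from 7.58 to 7.87, against 9.00 to 9.34 in wild-type 1 to 3. The groups did not overlap in either pair, and the difference was 1.74 ± 0.16 (SE, adjusted p = 0.000234). Slc7a11, the cystine and glutamate exchanger that feeds glutathione synthesis, had effects of -0.04 with HDAC7-VP16 and -2.04 in the knockout. Its difference of 2.00 passed at an adjusted p of 0.0201, though not without HDAC7-VP16 array 2 or 3 or wild-type 3, 5 or 6 (adjusted p up to 0.0757). P2rx1, an ATP-gated cation channel, read 9.44, 9.70 and 9.57 with HDAC7-VP16, against 9.28, 9.26 and 9.41 in wild-type 4 to 6. It read 7.36, 7.08 and 7.16 in the knockout, against 8.87, 8.73 and 8.70 in wild-type 1 to 3. The knockout arrays were far below their wild types, and the difference was 1.82 (1.51 to 2.13, adjusted p = 0.000125). Tmem38a, an intracellular cation channel, had effects of 0.23 with HDAC7-VP16 and -1.62 in the knockout, a difference of 1.85 (adjusted p = 0.000733).

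The exception in the list was P2rx7, another ATP-gated channel, through which extracellular ATP can kill T cells. It read 6.07, 6.08 and 6.29 in the HDAC7-VP16 arrays, against 5.79, 6.13 and 6.06 in wild-type 4 to 6, and these groups overlapped. Without HDAC7 it read 8.31, 8.55 and 8.44, against 6.54, 6.24 and 6.14 in wild-type 1 to 3. The knockout arrays stood apart, and the difference of -1.97 (-2.36 to -1.59) passed (adjusted p = 0.000234). P2rx1 and P2rx7, both receptors for ATP, thus differed in opposite directions.

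Xkrx, a member of the XK family of membrane proteins, had the smallest adjusted p of all positive differences. It read 8.15, 8.25 and 8.22 with HDAC7-VP16, against 8.28, 8.24 and 8.29 in wild-type 4 to 6. In the knockout it read 5.97, 5.64 and 6.13, against 8.42, 8.13 and 8.39 in wild-type 1 to 3. Only the knockout arrays stood apart, and the difference was 2.33 (1.97 to 2.70, adjusted p = 7.20e-05). Papss2, which makes the sulfate donor of the cell, was above wild type in every HDAC7-VP16 array and below it in every knockout array, with effects of 0.71 (adjusted p = 0.00997) and -1.14 (adjusted p = 0.0562). Its difference was 1.84 (1.33 to 2.36, adjusted p = 0.00318).

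**Figure D2:**
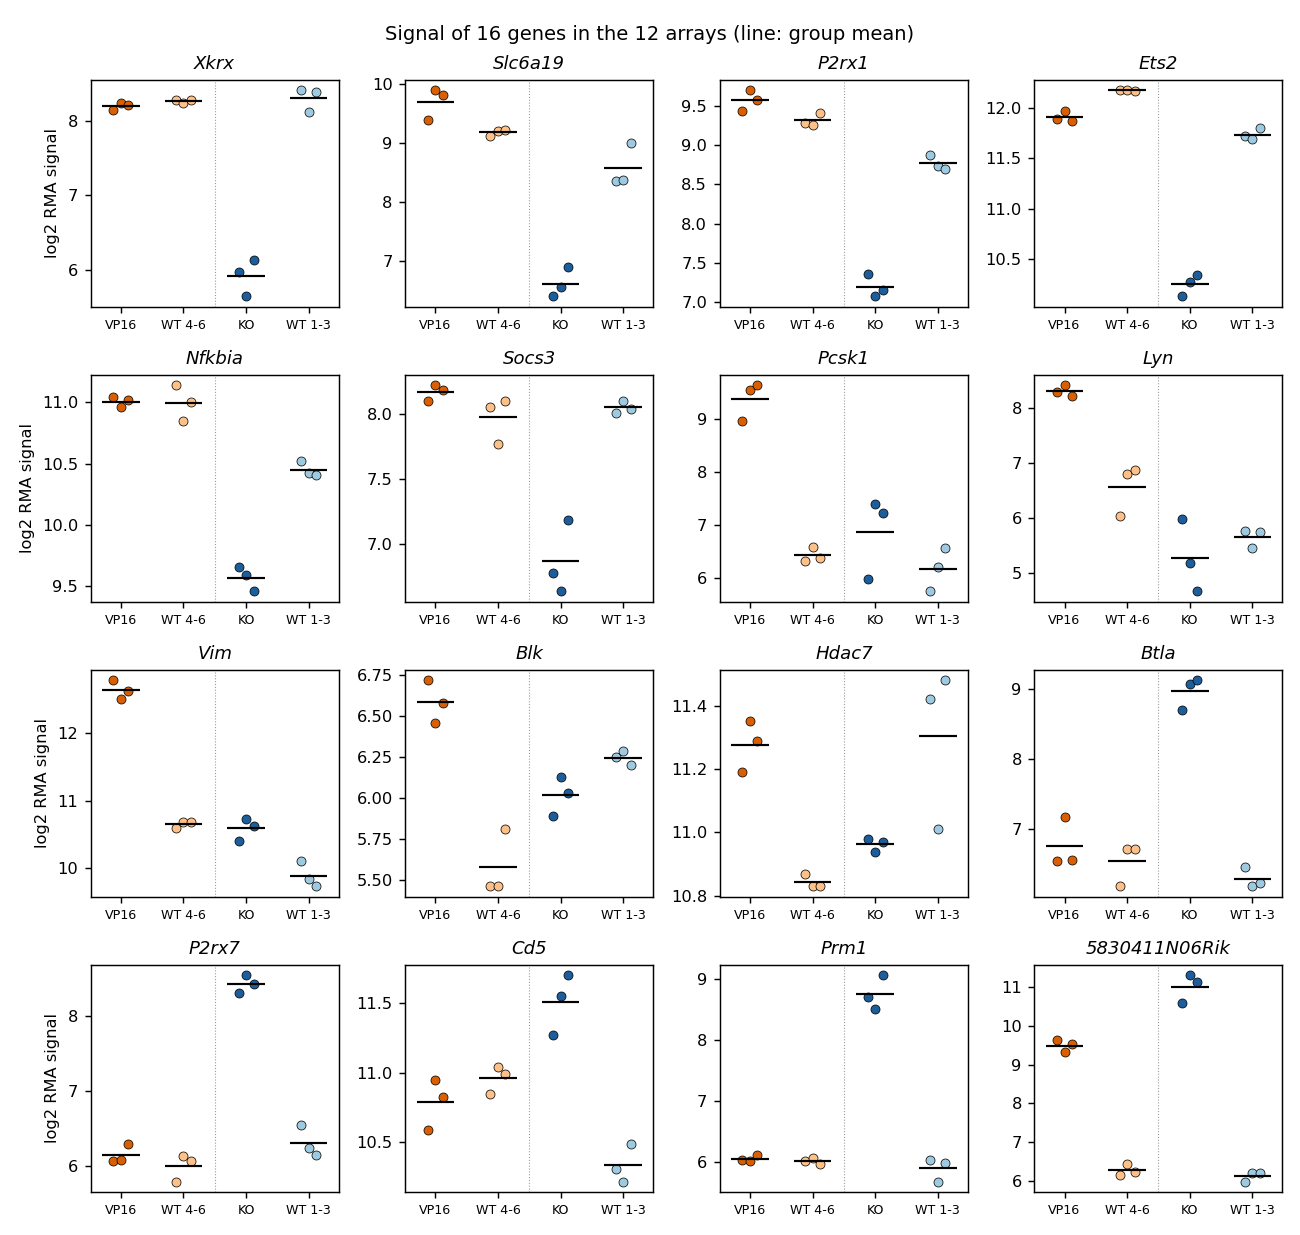
Log2 RMA signal (y axis) of 16 genes in the 12 arrays, with HDAC7-VP16 and wild-type 4 to 6 left of the dotted line, knockout and wild-type 1 to 3 right of it, and a line at each group's mean. In the top row and in Nfkbia and Socs3 the knockout arrays lie low, in Pcsk1, Lyn, Vim and Blk the HDAC7-VP16 arrays lie high, and in Btla, P2rx7, Cd5 and Prm1 the knockout arrays lie high.

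**Figure D3:**
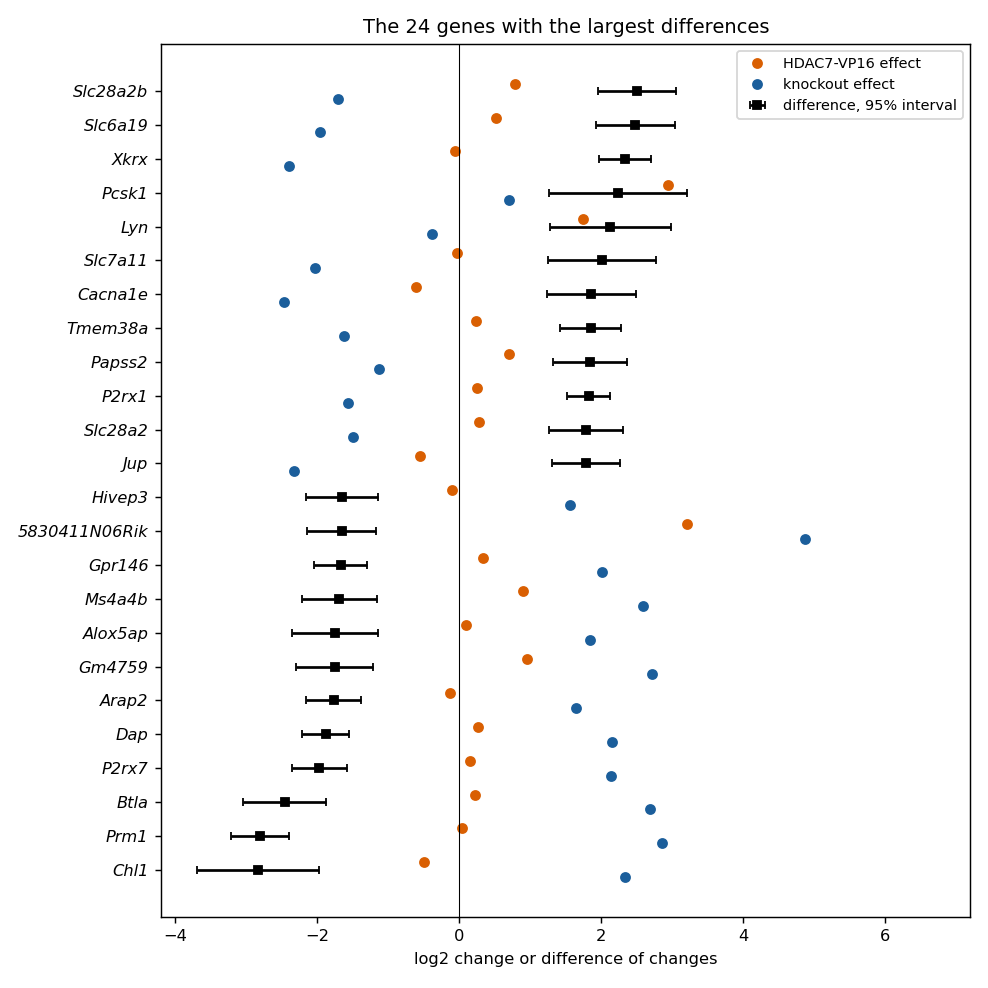
Differences with 95% intervals (black squares) and the effects they are made of (orange, HDAC7-VP16, blue, knockout), in log2, for the 12 named genes with the largest positive and the 12 with the largest negative difference. In most of them the orange point is near 0 and the blue point carries the difference, while 5830411N06Rik, Pcsk1, Lyn, Gm4759, Ms4a4b, Slc28a2b and Papss2 have HDAC7-VP16 effects between 0.71 and 3.21.

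Of 18 named genes of the double-positive stage before selection, 7 fell and 1 rose in the knockout, while 2 fell and 2 rose with HDAC7-VP16. Of all named probe sets 4.58% fell and 5.1% rose in the knockout, and 6.65% fell and 7.98% rose with HDAC7-VP16. The HDAC7-VP16 effect was higher in 7 and lower in 1, where 5.52% of all named probe sets were higher and 3.59% lower, and with the replicate block in 9 and 1. Members lay on both sides of wild type with HDAC7-VP16, 9 above and 9 below, from -1.05 to 1.14. The median effects were 0.00 with HDAC7-VP16 and -0.54 in the knockout. The list's median against its wild-type mean was -0.04, 0.07 and -0.03 in the HDAC7-VP16 arrays and -0.65, -0.59 and -0.44 in the knockout arrays. Leaving out HDAC7-VP16 array 2 or 3 or wild-type 5 left 4 members higher, and the lowest median difference over all 12 such fits was 0.45. The members were chosen with earlier results of these data known. Cacna1e, Scn4b and Slc7a11, whose differences passed, are also members of the list of channels and carriers, so these lists are not separate.

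Cacna1e, a subunit of a voltage-gated calcium channel, read 6.63, 6.99 and 6.96 with HDAC7-VP16, against 7.70, 7.33 and 7.37 in wild-type 4 to 6. It read 5.83, 5.35 and 6.04 in the knockout, against 8.46, 7.76 and 8.38 in wild-type 1 to 3. It was lower than wild type in every array of both groups, by 0.61 with HDAC7-VP16 (adjusted p = 0.0601) and by 2.47 in the knockout, and the difference was 1.86 (adjusted p = 0.0103). Jup, which codes for plakoglobin, a relative of beta-catenin, read 9.19, 9.12 and 8.97 with HDAC7-VP16, against 9.63, 9.64 and 9.66 in wild-type 4 to 6. Without HDAC7 it read 6.92, 6.81 and 7.5, against 9.45, 9.19 and 9.59 in wild-type 1 to 3. Jup fell in both, by 0.55 with HDAC7-VP16 (adjusted p = 0.0231) and by 2.33 in the knockout (adjusted p = 0.00171), and the size differed by 1.78 (1.30 to 2.26, adjusted p = 0.00234).

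Ets2, an ETS transcription factor, read 11.89, 11.97 and 11.87 with HDAC7-VP16, against 12.18, 12.18 and 12.17 in wild-type 4 to 6. It read 10.13, 10.27 and 10.34 in the knockout, against 11.72, 11.69 and 11.80 in wild-type 1 to 3. The groups were apart in both pairs, by -0.27 (adjusted p = 0.0707) and -1.49, and the difference was 1.23 ± 0.11 (SE, adjusted p = 0.000234). Scn4b, a subunit of a voltage-gated sodium channel, had effects of -0.36 and -1.69 and a difference of 1.33 (adjusted p = 0.00778). Ptcra, the alpha chain of the pre-T cell receptor, had effects of -0.24 with HDAC7-VP16 and -1.11 in the knockout, and its difference of 0.87 passed (adjusted p = 0.0142), though not without HDAC7-VP16 array 2 or 3 or wild-type 5 (up to 0.0556). Cd4 had effects of 0.08 and -0.59, and its difference of 0.67 passed at an adjusted p of 0.0368 but not without HDAC7-VP16 array 2 or 3, wild-type 3, 4, 5 or 6, or knockout array 2 or 3 (up to 0.11). The member with a lower HDAC7-VP16 effect was Lmo4, a LIM protein named after its values were seen, which rose in both, by 1.14 with HDAC7-VP16 and by 2.01 in the knockout (difference -0.87, adjusted p = 0.0306).

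**Figure D4:**
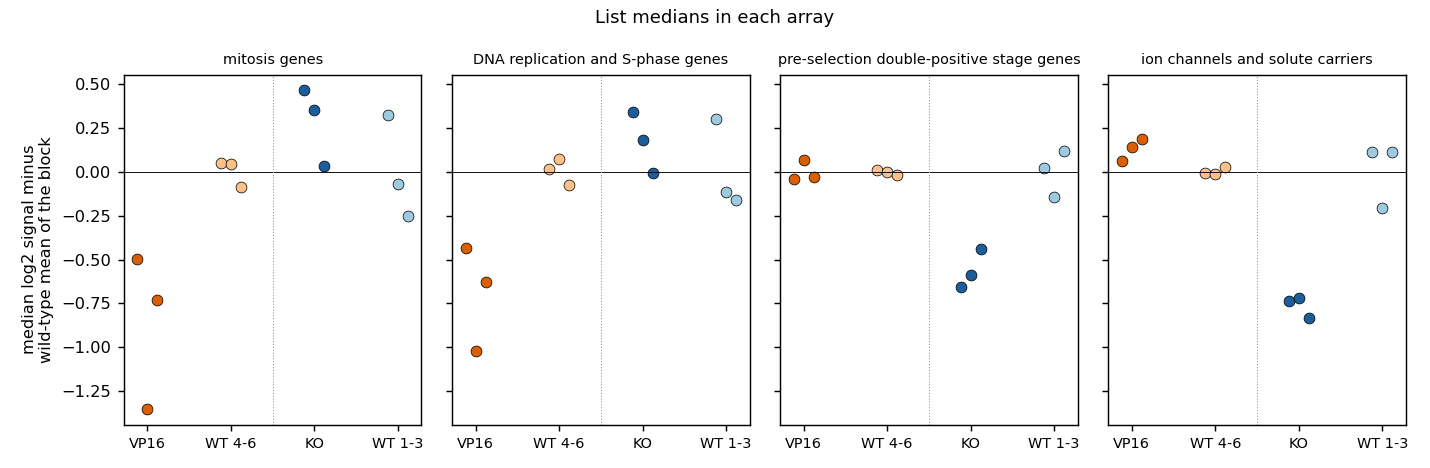
Median over the members of 4 gene lists of the log2 signal minus the mean of the wild-type arrays of the same normalization group (y axis), in each of the 12 arrays. The HDAC7-VP16 arrays lie low for mitosis and S-phase genes, lowest in array 2, while the knockout arrays lie low for pre-selection genes and for ion channels and solute carriers.

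Nfkbia, Socs3, Socs1 and Il10ra fell in the knockout, and their HDAC7-VP16 effects did not pass. Nfkbia, the inhibitor of NF-kB and itself one of its targets, read 11.04, 10.96 and 11.02 with HDAC7-VP16, against 11.14, 10.85 and 11.00 in wild-type 4 to 6. It read 9.66, 9.59 and 9.46 in the knockout, against 10.52, 10.42 and 10.41 in wild-type 1 to 3. The first pair overlapped and the second did not, and the difference was 0.89 (0.61 to 1.17, adjusted p = 0.00662). It was the only one of 13 named NF-kB subunits and targets whose difference passed, where 5.52% of all named probe sets were higher and 3.59% lower. At an unadjusted p below 0.05 there were 7, all higher with HDAC7-VP16. Among all 28923 tested, named or not, there were 3416 in either direction. The members were chosen with earlier results of these data known. The differences of 11 of the 13 lay above 0, with a median of 0.27 against -0.03 over all named probe sets. Socs3, an inhibitor of cytokine signalling, read 8.10, 8.22 and 8.18 with HDAC7-VP16, against 8.05, 7.77 and 8.10 in wild-type 4 to 6. In the knockout it read 6.78, 6.64 and 7.19, against 8.01, 8.10 and 8.04 in wild-type 1 to 3. Its knockout arrays were the low ones, and the difference was 1.37 (0.97 to 1.77, adjusted p = 0.00456). Socs1, of the same family, had effects of -0.02 and -0.97 and a difference of 0.96 (adjusted p = 0.0156, and 0.0512 and 0.0531 without HDAC7-VP16 array 2 or 3). Il10ra, a chain of the receptor for interleukin 10, had effects of 0.00 and -1.09 and a difference of 1.09 (adjusted p = 0.0258), which did not pass without HDAC7-VP16 array 2 or 3 or wild-type 3, 4, 5 or 6 (up to 0.0843).

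Socs3, Socs1 and Il10ra were 3 of the 4 members of the list of cytokine receptors and signalling with a higher HDAC7-VP16 effect, out of 14 named. The other was Tgfbr3, named after its values were seen (difference 0.80, adjusted p = 0.0497). Il17rb, the receptor for interleukin 25, went the other way. It rose by 0.75 with HDAC7-VP16 and by 1.94 in the knockout, a difference of -1.18 (adjusted p = 0.0324). It still passed without HDAC7-VP16 array 2, wild-type 4, knockout array 3 or wild-type 1, and failed without any of the others (up to 0.106). In this list 4 of 14 were thus higher and 1 lower, where 5.52% and 3.59% of all named probe sets were. With the replicate block 5 members were higher and 2 lower. The list's median difference was 0.02, and 1 member was higher without HDAC7-VP16 array 2 or 3 and 2 without wild-type 3, 4, 5 or 6.

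Death-related genes split. Of 8 named pro-apoptotic genes, 2 had a higher HDAC7-VP16 effect, Bmf and Dapk1, and 2 a lower one, Dap among them. Among all named probe sets 5.52% were higher and 3.59% lower. Bmf, a BH3-only killer protein, had effects of -0.28 with HDAC7-VP16 and -1.43 in the knockout, a difference of 1.15 (adjusted p = 0.0237), which did not pass without HDAC7-VP16 array 2 or 3, wild-type 3, 4 or 5, or knockout array 2 (up to 0.0775). Dapk1, a death-associated kinase, read from 8.76 to 8.79 with HDAC7-VP16, against 8.82 to 8.85 in wild-type 4 to 6, and from 8.18 to 8.27 in the knockout, against 9.12 to 9.16 in wild-type 1 to 3. Its difference was 0.87 ± 0.10 (SE, adjusted p = 0.00102). Dap, named for its association with interferon-induced death, read from 9.36 to 9.49 with HDAC7-VP16, against 9.08 to 9.22 in wild-type 4 to 6, and from 10.19 to 10.52 in the knockout, against 8.06 to 8.40 in wild-type 1 to 3. It was above wild type in all arrays of both groups, by 0.27 (adjusted p = 0.0921) and 2.15, a difference of -1.88 (adjusted p = 0.000158).

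The inhibitory receptors Btla, Cd5 and Cd200 stood higher in the knockout than with HDAC7-VP16, each against its own wild-type arrays. Of 8 named inhibitory receptors, 3 had a lower and none a higher HDAC7-VP16 effect, in every fit that left out an array, where 3.59% of all named probe sets were lower and 5.52% higher. The list's median effects were 0.11 with HDAC7-VP16 and 0.82 in the knockout. Its members did not move as a class. In the knockout 4 of the 8 rose, where 5.1% of all named probe sets did, and 3 lay below wild type, down to -0.61. Of the 8, 1 rose and 1 fell with HDAC7-VP16, where 7.98% and 6.65% of all named did. The HDAC7-VP16 effects of the 8 ranged from -0.62 to 1.38. Btla, which restrains T cell receptor signalling, read 6.55, 7.17 and 6.56 with HDAC7-VP16, against 6.18, 6.72 and 6.72 in wild-type 4 to 6. It read 8.70, 9.08 and 9.13 in the knockout, against 6.46, 6.18 and 6.23 in wild-type 1 to 3. The first pair overlapped, the knockout arrays stood apart, and the difference was -2.46 (-3.04 to -1.87, adjusted p = 0.000869). Cd5, whose level on thymocytes is known to follow the strength of receptor signals, read 10.59, 10.95 and 10.83 with HDAC7-VP16, against 10.85, 11.04 and 10.99 in wild-type 4 to 6. Without HDAC7 it read 11.27, 11.55 and 11.70, against 10.31, 10.22 and 10.49 in wild-type 1 to 3. Again the first pair overlapped and the second did not, and the difference was -1.34 (-1.73 to -0.95, adjusted p = 0.00453). Cd200 had effects of 0.27 and 1.36, a difference of -1.09 (adjusted p = 0.00849).

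Of 16 named post-selection maturation genes, 3 had a lower HDAC7-VP16 effect and none a higher one, where 3.59% and 5.52% of all named probe sets did. With the replicate block 5 were lower and 1 higher, against 365 and 284 of all 28923 tested. The latter include the unnamed probe sets and are no like base for named genes. Cd5 and Ms4a4b, a surface protein of T cells, were among the 3 without the block. Ms4a4b rose in both, reading 7.78, 8.17 and 7.82 with HDAC7-VP16, against 6.84, 7.21 and 7.03 in wild-type 4 to 6. It read 7.99, 8.66 and 8.64 in the knockout, against 5.77, 5.79 and 5.95 in wild-type 1 to 3. Neither pair overlapped, and the rise was smaller with HDAC7-VP16 (0.90) than in the knockout (2.59), a difference of -1.69 (adjusted p = 0.00599). The list's median effects were 0.23 and 0.19. The summed linear signal of 6 of the 10 listed markers of single-positive thymocytes ranged from 4521 to 4959 with HDAC7-VP16, against 4688 to 4847 in wild-type 4 to 6. It ranged from 3614 to 4798 in the knockout, against 2749 to 3049 in wild-type 1 to 3. The part of single-positive cells in these differences was not tested.

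Other genes high in the knockout alone came from unrelated families. Prm1, which codes for a protamine that packs sperm DNA, read 6.03, 6.02 and 6.12 with HDAC7-VP16, against 6.02, 6.06 and 5.97 in wild-type 4 to 6. It read 8.70, 8.5 and 9.06 in the knockout, against 6.04, 5.68 and 5.98 in wild-type 1 to 3. Only the knockout arrays left the low range, and the difference was -2.81 (-3.21 to -2.40, adjusted p = 5.90e-05). Chl1, a cell adhesion molecule of the L1 family, read 4.71, 4.96 and 4.60 with HDAC7-VP16, against 4.90, 5.54 and 5.32 in wild-type 4 to 6. In the knockout it read 6.80, 8.09 and 8.08, against 5.37, 5.25 and 5.32 in wild-type 1 to 3. All arrays outside the knockout lay below the array medians, where signals are dim, so the fitted difference of -2.83 (adjusted p = 0.00523) gives a direction more surely than a size. The HDAC7-VP16 arrays overlapped their wild types.

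Arap2, which regulates small GTPases of the Arf family, had effects of -0.13 with HDAC7-VP16 and 1.64 in the knockout, a difference of -1.77 (adjusted p = 0.000593). For Alox5ap, needed for leukotriene synthesis, they were 0.09 and 1.84, a difference of -1.75 (adjusted p = 0.0123). Hivep3, a large zinc finger protein, had effects of -0.10 and 1.55, a difference of -1.65 (adjusted p = 0.00566). All of these passed whichever of the 12 arrays was removed.

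The 2 receptors whose promoters are printed above followed the same pattern. Gpr146 read 6.93, 7.02 and 6.83 with HDAC7-VP16, against 6.42, 6.68 and 6.70 in wild-type 4 to 6, and 8.79, 8.87 and 8.39 in the knockout, against 6.69, 6.65 and 6.69 in wild-type 1 to 3. Its arrays were above wild type in both groups, by 0.33 (adjusted p = 0.115) and 2.01, a difference of -1.67 (-2.05 to -1.30, adjusted p = 0.000622). Gpr65 had effects of 0.17 and 1.43, a difference of -1.26 (adjusted p = 0.00849). Tgif1, in the opposite direction, had effects of 0.02 and -0.67 and a difference of 0.70 (adjusted p = 0.0128).

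The Src family kinases Lyn and Blk stood high with HDAC7-VP16 and not without HDAC7. Lyn, known from B cells and myeloid cells, read 8.30, 8.42 and 8.23 with HDAC7-VP16, against 6.04, 6.80 and 6.88 in wild-type 4 to 6. It read 5.98, 5.18 and 4.67 in the knockout, against 5.77, 5.45 and 5.75 in wild-type 1 to 3. The HDAC7-VP16 arrays stood apart, and the knockout arrays overlapped their wild types, all of them below the array medians. The difference was 2.12 (1.27 to 2.98, adjusted p = 0.0275). It did not pass without HDAC7-VP16 array 2 or 3, wild-type 3, 4 or 5, or knockout array 2 (up to 0.0817). Blk, known from B cells and gamma-delta T cells, read 6.72, 6.46 and 6.58 with HDAC7-VP16, against 5.46, 5.46 and 5.81 in wild-type 4 to 6. Without HDAC7 it read 5.89, 6.13 and 6.03, against 6.25, 6.29 and 6.20 in wild-type 1 to 3. The groups were apart in both pairs, with effects of 1.01 with HDAC7-VP16 (adjusted p = 0.0117) and -0.23 in the knockout (adjusted p = 0.752), a difference of 1.24 (0.90 to 1.58, adjusted p = 0.00289).

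Both kinases are listed with the signalling machinery of the T cell receptor. There 2 of 14 named members had a higher and 1 a lower HDAC7-VP16 effect, where 5.52% and 3.59% of all named probe sets did. With the replicate block there were 4 and 1. The lower one was Malt1, a protease of the NF-kB pathway, with effects of 0.22 and 0.89 (difference -0.67, adjusted p = 0.0448), which still passed without wild-type 1 and failed without any other array (up to 0.147). Markers of B cells were read beside these values, and Cd79b was the only one of 13 that is named. Its summed linear signal ranged from 662 to 744 with HDAC7-VP16, against 522 to 653 in wild-type 4 to 6, and from 162 to 249 in the knockout, against 303 to 342 in wild-type 1 to 3. Its difference of 0.90 did not pass (adjusted p = 0.0668) but passed with the replicate block (adjusted p = 0.0442). Of 9 gamma-delta T cell markers 2 are named, Blk itself and Cd163l1, and their sum was 294 to 338 with HDAC7-VP16, against 128 to 141 in wild-type 4 to 6, and 279 to 391 in the knockout, against 146 to 154 in wild-type 1 to 3. Of 17 macrophage, monocyte and granulocyte markers 3 are named, with summed linear signals of 355 to 453 with HDAC7-VP16, against 282 to 317 in wild-type 4 to 6, and 318 to 353 in the knockout, against 248 to 312 in wild-type 1 to 3. With HDAC7-VP16 all 3 of these lay above wild type, and in the knockout 1 lay above and 2 below. The part of other cell types was not tested.

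Vim, the intermediate filament protein vimentin, read 12.79, 12.51 and 12.63 with HDAC7-VP16, against 10.60, 10.69 and 10.68 in wild-type 4 to 6. It read 10.41, 10.73 and 10.63 in the knockout, against 10.10, 9.84 and 9.73 in wild-type 1 to 3. Vim was above wild type in every array of both groups, by 1.99 (adjusted p = 0.000137) and 0.70 (adjusted p = 0.0771), and the difference was 1.29 (0.93 to 1.64, adjusted p = 0.00292). Pcsk1 read 8.96, 9.53 and 9.63 with HDAC7-VP16, against 6.32, 6.59 and 6.38 in wild-type 4 to 6. In the knockout it read 5.99, 7.40 and 7.22, against 5.75, 6.21 and 6.56 in wild-type 1 to 3. The first groups were far apart and the second overlapped, and the difference of 2.24 (1.27 to 3.21) passed at an adjusted p of 0.0422, though not without HDAC7-VP16 array 2 or 3 or wild-type 2 to 6 (up to 0.114).

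Slc43a1 and Fmnl3 were the only genes among the 232 called in both effects with opposite directions. Slc43a1, an amino acid transporter, read 10.34, 10.56 and 10.39 with HDAC7-VP16, against 10.03, 9.96 and 9.97 in wild-type 4 to 6. It read 8.96, 8.98 and 8.87 in the knockout, against 9.83, 9.46 and 9.80 in wild-type 1 to 3. It rose by 0.44 (adjusted p = 0.0421) and fell by 0.76 (adjusted p = 0.0354), with no overlap in either pair, and the difference was 1.21 (adjusted p = 0.00200). Fmnl3, a formin that shapes actin filaments, read 8.12, 8.14 and 8.14 with HDAC7-VP16, against 8.51, 8.52 and 8.60 in wild-type 4 to 6. Without HDAC7 it read 9.43, 9.40 and 9.44, against 8.83, 8.55 and 8.53 in wild-type 1 to 3. It fell by 0.41 (adjusted p = 0.0321) and rose by 0.78 (adjusted p = 0.0199), again with no overlap, a difference of -1.19 (adjusted p = 0.000622).

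Some genes moved the same way in both and differed in size. Of 43 probe sets that rose in both, 10 differed, all with the larger rise in the knockout, and of 11 that fell in both, 2 differed, Jup and Akap12, both with the larger fall in the knockout. Akap12 was named after its values were seen (difference 0.60). The largest rise of all was that of 5830411N06Rik, which read 9.63, 9.32 and 9.52 with HDAC7-VP16, against 6.17, 6.45 and 6.23 in wild-type 4 to 6. It read 10.59, 11.30 and 11.12 in the knockout, against 5.99, 6.22 and 6.20 in wild-type 1 to 3. Neither pair came near overlap, and the rises of 3.21 and 4.87 differed by -1.66 (-2.15 to -1.17, adjusted p = 0.00456). Gm4759 rose by 0.95 and 2.71, a difference of -1.76 (adjusted p = 0.00599). Ppm1e, a phosphatase, rose by 0.49 and 1.86, a difference of -1.37 (adjusted p = 0.000232). Coro2b, an actin-binding coronin, rose by 0.48 and 1.78 and differed by -1.30 (adjusted p = 0.0277), though not without HDAC7-VP16 array 2 or 3, wild-type 4 or 5, or knockout array 1 or 2 (up to 0.0968). Ampd1, an AMP deaminase, rose by 0.49 and 1.55, a difference of -1.06 (adjusted p = 0.00456).

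The remaining 33 shared rises and 9 shared falls did not pass for a difference, and for 23 and 6 of them the 95% interval lay within a difference of 1. St3gal6, a sialyltransferase, rose by 1.70 with HDAC7-VP16 and by 1.37 in the knockout, a difference of 0.33 (-0.20 to 0.86). Actn2, an actinin, rose by 1.71 and 1.78, with an interval from -0.52 to 0.37. Dusp4, a phosphatase that turns off MAP kinases, fell by 1.28 and 1.25, with an interval from -0.47 to 0.40. Sizes that differ by less than these bounds were not detectable here. Gfra1, a receptor for neurotrophic factors, rose by 1.64 and 1.5 (-0.48 to 0.77). Cd163l1, a scavenger receptor known from gamma-delta T cells, rose by 1.29 and 1.76 (-0.91 to -0.05), and Herc3, a ubiquitin ligase, by 1.30 and 1.73 (-0.83 to -0.02). Ly6c1 and Ly6c2, surface proteins of memory and innate-like T cells that may share signal, rose by 1.62 and 1.39 with HDAC7-VP16 and by 2.53 and 2.01 in the knockout. Their intervals, -1.71 to -0.10 and -1.34 to 0.09, allow a larger rise in the knockout.

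**Figure D5:**
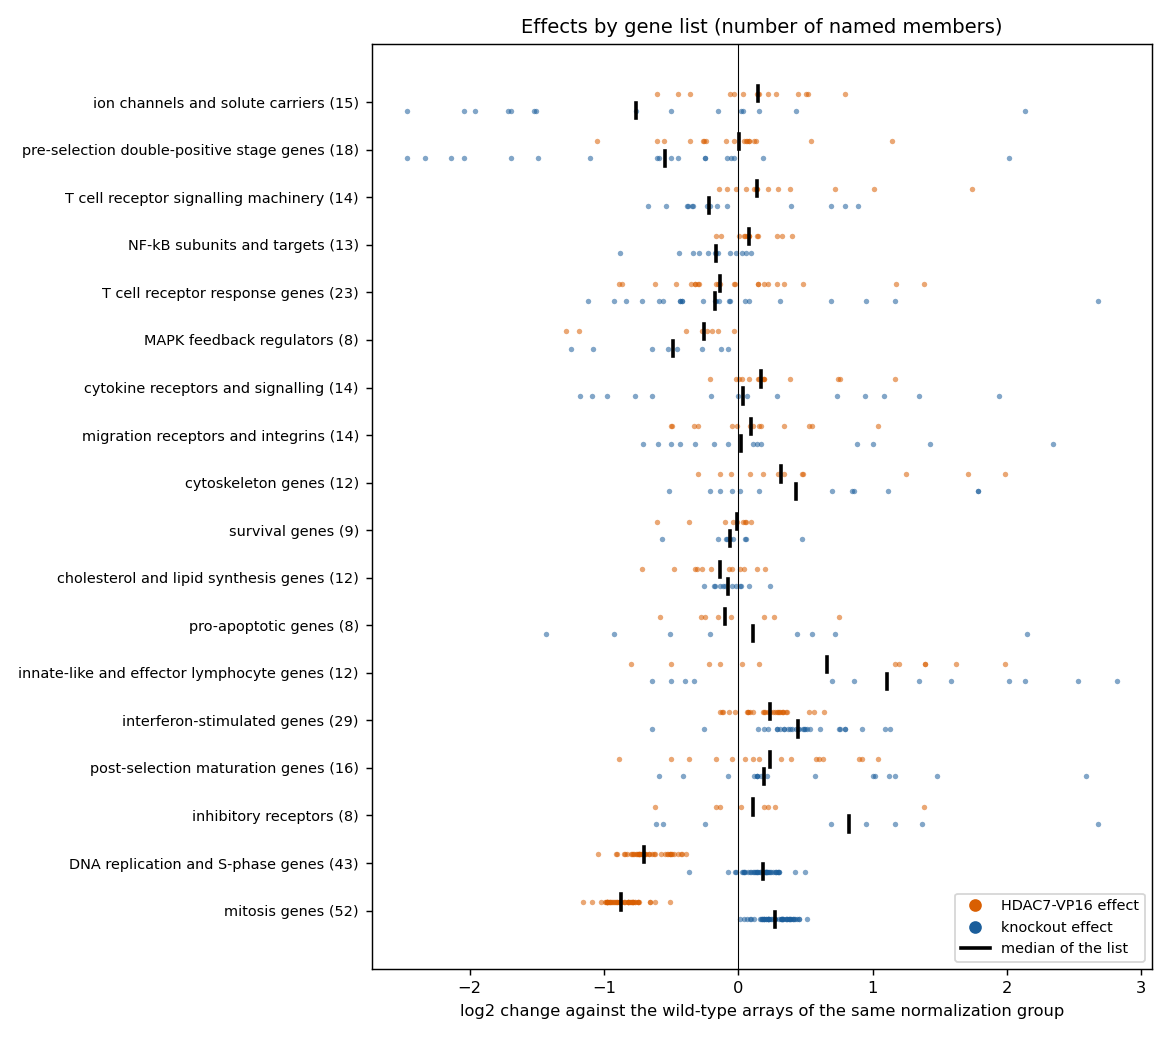
Effects of HDAC7-VP16 (orange) and of HDAC7 loss (blue), in log2 against the wild-type arrays of the same normalization group, for the named members of 18 gene lists with at least 8 named members; black bars are medians. Orange and blue part for ion channels and solute carriers and for pre-selection genes at the top and for S-phase and mitosis genes at the bottom, and overlap in most lists between.

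Cell cycle genes leaned in opposite directions, and how many passed depended on the fit. All 52 named mitosis genes lay below wild type with HDAC7-VP16 and all 52 lay above it in the knockout, with median effects of -0.87 and 0.28 and a median difference of -1.16. Only Ect2, needed for cytokinesis, passed the difference (-1.19, adjusted p = 0.0460), and with an array removed only without HDAC7-VP16 array 1 or wild-type 1 (up to 0.143 in the others). The list's median against its wild-type mean was -0.50, -1.35 and -0.73 in the HDAC7-VP16 arrays and 0.46, 0.35 and 0.04 in the knockout arrays, while wild-type 1 to 3 spread over 0.33, -0.07 and -0.25. Array 2 of HDAC7-VP16 was thus the lowest, and knockout array 3 lay within the range of its wild types. At an unadjusted p below 0.05 all 52 differed, as did 3416 of the 28923 probe sets tested. With the replicate block 32 of the 52 had a lower HDAC7-VP16 effect, against 365 of all tested. With the spread estimated inside each normalization group there were 33, against 255 of all tested. Without dim probe sets there were 22 (236 of all in that fit), with an intensity trend 9 (144) and with a robust prior 6 (124). Over all rows of the value table there were none (55). The 52 are named, and named genes were chosen on these samples. In the fit that gave the 232, 3.59% of all named probe sets were lower, against 0.325% of all tested. Counts over all tested are thus no like base for this list. Without HDAC7-VP16 array 2 none passed (47 lower of all tested) and the median difference was -0.91. Without HDAC7-VP16 array 1 there were 24 (172), without wild-type 1 there were 25 (257) and without knockout array 3 there were 7 (101). Ect2 read 10.10, 9.29 and 9.84 with HDAC7-VP16, against 10.51, 10.58 and 10.45 in wild-type 4 to 6, and 10.72, 10.75 and 10.49 in the knockout, against 10.38, 10.32 and 10.00 in wild-type 1 to 3.

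The 43 named genes of DNA replication and S phase showed the same lean, all below wild type with HDAC7-VP16 and 39 above it in the knockout. Their median effects were -0.70 and 0.18, and 14 fell with HDAC7-VP16 on its own arrays, where 6.65% of all named probe sets did. Pola1, a subunit of the polymerase that starts DNA strands, was the only one whose difference passed. It read 8.36, 7.88 and 8.36 with HDAC7-VP16, against 8.92, 9.03 and 8.84 in wild-type 4 to 6. In the knockout it read 9.40, 9.12 and 8.88, against 8.99, 8.58 and 8.34 in wild-type 1 to 3. The first groups were apart and the second overlapped, and the difference of -1.23 passed at an adjusted p of 0.0463. It still passed without HDAC7-VP16 array 1, knockout array 3 or wild-type 1, and failed without any other array (up to 0.145). At an unadjusted p below 0.05 there were 40, against 3416 of the 28923 probe sets tested. With the replicate block 21 of the 43 had a lower HDAC7-VP16 effect, against 365 of all tested. Without HDAC7-VP16 array 1 there were 12 (172 lower of all tested) and without wild-type 1 there were 19 (257). Knockout array 3 left out gave 1 (101), and each other array left out gave none. All tested include the unnamed and are no like base for these named genes.

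Several lists showed no member that differed, where 5.52% of all named probe sets were higher and 3.59% lower. At an unadjusted p below 0.05 there were 3416 among all 28923 tested, named or not. None of 8 MAPK feedback regulators passed in limma (2 had an unadjusted p below 0.05), and all 8 were below wild type in both groups, with medians of -0.25 and -0.49. Dusp5 had the largest difference among them, 0.49 (0.20 to 0.78), which passed with the replicate block (adjusted p = 0.0374). None of 29 interferon-stimulated genes passed (2 at an unadjusted p below 0.05), with median effects of 0.24 and 0.44. Their median was 0.13, 0.39 and 0.16 in the HDAC7-VP16 arrays and 0.29, 0.96 and 0.08 in the knockout arrays, so that array 2 was highest in each group. Ifit1 had the largest difference there, -1.25, with an interval from -2.59 to 0.09, and without knockout array 2 the list's median difference was 0.02. None of 12 genes of cholesterol and lipid synthesis and none of 9 survival genes passed, with 1 and 2 at an unadjusted p below 0.05. Bcl2l1, which codes for Bcl-xL and keeps double-positive cells alive, had a difference of 0.60 (0.26 to 0.95) that passed with the replicate block (adjusted p = 0.0438).

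None of 6 named double-negative stage genes passed either (4 at an unadjusted p below 0.05), though Il2ra, the alpha chain of the interleukin 2 receptor, rose with HDAC7-VP16 by 1.18 (adjusted p = 0.0444) and had an effect of -0.14 in the knockout. Its difference of 1.32 (0.61 to 2.03) and that of Notch3, 1.00 (0.51 to 1.5), passed with the replicate block (limma adjusted p = 0.0418 and 0.0232). With the spread estimated inside each normalization group 2 members of the list were higher. Without dim probe sets, with array weights and without knockout array 1 there was 1 each. Of 8 double-negative thymocyte markers 4 are named, Il2ra among them, with summed linear signals of 691 to 913 with HDAC7-VP16, against 462 to 631 in wild-type 4 to 6, and 290 to 365 in the knockout, against 325 to 416 in wild-type 1 to 3. Among 23 T cell receptor response genes Btla and Cd5 passed and no others (9 at an unadjusted p below 0.05). Of all named probe sets 3.59% were lower and 5.52% higher. With the replicate block 2 of the 23 were higher and 2 lower, and the list's median effects were -0.13 and -0.17. Nr4a1, the receptor that HDAC7 is best known to repress, had effects of -0.29 and -0.83 and a difference of 0.54 that did not pass (adjusted p = 0.162). It was named after its values were seen.

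Markers of the sorted stage were read in the same arrays. Of 11 listed markers of double-positive thymocytes 7 are named, and their summed linear signal was 35229 to 37050 with HDAC7-VP16, against 33608 to 34554 in wild-type 4 to 6. It was 22156 to 23820 in the knockout, against 26834 to 28888 in wild-type 1 to 3, so that the knockout arrays were low and the groups were apart in both pairs. Ptcra and Cd4 of these 7 had a higher HDAC7-VP16 effect, where 5.52% of all named probe sets did, and 3 did with the replicate block. Of 12 markers of NK and innate lymphoid cells 2 are named, with sums of 1350 to 1472 with HDAC7-VP16, against 604 to 658 in wild-type 4 to 6, and 512 to 1293 in the knockout, against 309 to 424 in wild-type 1 to 3. Gzma, a granzyme and 1 of these markers, rose by 1.39 with HDAC7-VP16 (adjusted p = 0.000561) and had an effect of 1.58 in the knockout (adjusted p = 0.186), a difference of -0.19 (-1.15 to 0.77). Its knockout array 2 read 10.21, against 8.66 and 8.86 in the others. Prf1, the other named marker, lay below wild type in both groups, by -0.14 with HDAC7-VP16 and -0.40 in the knockout. The higher sums are thus those of Gzma alone. Of the 8 NKT cell markers 3 are named, and none differed, while 1, Slamf6, passed with the replicate block (difference 0.68, adjusted p = 0.0490, against 0.185 without the block). The sums were 1895 to 1982 and 1818 to 2098 for HDAC7-VP16 and wild-type 4 to 6, and 1068 to 1293 and 1210 to 1662 for the knockout and wild-type 1 to 3. Most markers of other cell types carry no name here and were not read.

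The authors' deposited tables also list changes after injection of agonist peptide into OT-2 mice, a model of negative selection on other arrays. By the authors' deposited table, 215 of the 2119 named genes (10.1%) were higher after peptide at a q-value below 5 percent. Among the 76 genes with a lower HDAC7-VP16 effect these were 13 (17.1%), and among the 117 with a higher one 9 (7.69%), in the authors' deposited table. Lower after peptide by the authors' deposited table were 224 of the 2119 (10.6%), 1 of the 76 (1.32%) and 7 of the 117 (5.98%). Btla was among the 13, with a fold of 1.94 in the authors' deposited table, and Chl1 had 1.44 there. Of the 2119, 1126 stood in neither the knockout nor the HDAC7-VP16 table of the authors, and were named through their tables of OT-2 mice. Such genes were 2 of the 76 and 1 of the 117. The shares over all named genes are thus not a like base for the shares of these sets. The shares were not tested.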

How the data were processed

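RNA of sorted double-positive thymocytes was hybridised to Affymetrix Mouse Gene 1.0 ST arrays, 3 per group. The deposited log2 values are RMA signals made by the authors in Affymetrix Expression Console, per the submitters' processing notes, in separate normalization groups that followed the comparisons, so no level was compared across normalization groups. The deposited tables of changed genes hold the authors' fold (a ratio), score and q-value (in percent) from SAM, per the file headers, and only the fold and q-value are quoted. The table of 35556 rows was reduced by 6612 rows of a low-numbered block and by 21 second probe sets of a gene, which left 28923. Gene names came only from the authors' tables: 1922 matched RefSeq by accession, 118 by symbol and 63 by synonym, 37 kept the file's symbol, and 160 had none.

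A model of the 4 group means was fitted to the 12 arrays with limma 3.58.1 in R 4.3.3 (lmFit, eBayes), with Benjamini-Hochberg adjustment over all 28923 rows and a threshold of 0.05. Each single effect was fitted on its own 6 arrays. The p-values measure the spread between these samples. Python 3.11.15, pandas 2.3.3 and matplotlib 3.10.9 made the summaries and plots, and the scripts were tested on simulated data. Same-numbered knockout and wild-type 1 to 3 arrays deviated together (correlations of deviations from the group means 0.42, 0.26 and 0.25), so a fit with that replicate block is given where it changes the call of a gene or the count of a list described. The other alternatives were 3 scalings, 3 variance settings, array weights, filters, and leaving out each array. A spread estimated inside each normalization group, and the block with a common median and SD, were added after seeing the data.

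The genes named are Hdac7, the 12 largest differences in each direction among genes that pass and whose highest group mean exceeds the median, up to 8 per pattern of effects, 8 genes called alike in both, and up to 4 passing members per gene list (or 2 where none passed). Genes outside this rule are said to be so where they are named. Members and lists were chosen with earlier results of these data known. Arrays of OT-2 mice were not analysed here beyond the authors' tables. Results of a few listed genes are not reported here.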

Additional observations from a re-analysis of the deposited data

How the results depend on the processing

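The 232 differing probe sets became 649 with the replicate block (284 higher, 365 lower), 785 with the block and a common median and SD (283 and 502), 462 with the spread estimated inside each normalization group (207 and 255), 462 without dim probe sets (226 and 236) and 132 over all rows of the value table (77 and 55). Leaving out an array gave 94 to 400. Quantile normalization (288), a common median and SD (269), centring on medians (227), an intensity trend (319), a robust prior (279) and array weights (259) stayed within 1.5 times. The scalings moved the median of all differences between -0.04 and 0.04. The knockout count of 234 was 637 in the fit over 12 arrays and 107 to 155 without an array. The HDAC7-VP16 count of 413 was 145 in the fit over 12 arrays, 214 after quantile normalization (144 up, 70 down), 575 after centring (184 up, 391 down) and 35 to 791 without an array. Of the results of named genes under an alternative, 1682 stayed on their side of the threshold, 138 lost and 28 gained a call, and 15 reversed, all among genes whose difference did not pass. The difference of Gfra1 became -0.012 after quantile normalization, -0.037 with a common median and SD, with or without the block, and -0.14 to 0.36 without an array, lowest without knockout array 1. Dusp4 gave 0.19 after quantile normalization, 0.018 with a common median and SD, with or without the block, and -0.15 to 0.086 without an array, above 0 without HDAC7-VP16 array 1, wild-type 6, knockout array 1 or wild-type 2. Actn2 gave 0.0046 with array weights and -0.22 to 0.057 without an array, above 0 without HDAC7-VP16 array 1 or knockout array 1. Gzma gave -0.48 to 0.29 without an array, above 0 only without knockout array 2. The causes were not tested. The replicate block gained calls for 7 of the 81 genes of the naming rule, among them Il2ra, Notch3, Cd79b, Slamf6, Bcl2l1 and Dusp5, and lost none. With 3 arrays a group and a median SE of 0.16, small differences were not detectable, and without most gene names the lists cover the authors' changed genes only.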

Other observations

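Some of the differing genes lie next to each other. Among 272 pairs of named genes that are neighbours in the RefSeq order, 10 pairs had both members differ, all 10 in the same direction. Of all named probe sets 9.11% differed. How often the other pairs shared a direction is not given here. On chromosome 11 these were Plxdc1 and Arl5c (differences 1.56 and 1.59), Jup and P3h4 (1.78 and 1.59), Ppm1e and Rad51c (-1.37 and -0.93), and Mrpl27 and Xylt2 (-1.03 and -1.28). On chromosome 9 the sodium channel subunits Scn2b and Scn4b differed by 0.89 and 1.33, with knockout effects of -1.11 and -1.69. On chromosome 16 the inhibitory receptor gene Btla lies beside Cd200 (-2.46 and -1.09), and on chromosome 14 Il17rb lies beside Chdh, a choline dehydrogenase (-1.18 and -1.02). On chromosome 14 Dnajc15 and Epsti1 also differed (0.81 and 0.97), as did Plin2 and Dennd4c on chromosome 4 (0.95 and 0.73). Slc28a2 and Slc28a2b on chromosome 2 are paralogs and may share signal. The pairs were picked after their values were seen, and their number was not tested.

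Hdac5, a class IIa deacetylase like HDAC7 and also picked after its values were seen, rose in the knockout by 1.26 (limma adjusted p = 0.00333) and had an effect of 0.50 with HDAC7-VP16. The difference of -0.76 did not pass (adjusted p = 0.0699) but passed with the replicate block (adjusted p = 0.0499).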
